A study of Mus musculus with 4 samples.

Results

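The cytochrome P450 genes whose family number is 4 or higher encode the P450 enzymes that act on the body's own lipids: cholesterol, bile acids, steroid hormones, fatty acids and vitamins A and D. They were taken here as every probe set of the array that names a single gene whose symbol is *Cyp* followed by such a number. This gave 46 probe sets of 30 genes, out of 34945 probe sets and 18193 genes with a single gene name. A probe set was tested when it was called Present, that is above its mismatch background, on at least 2 of the 4 arrays, and a gene was tested at its brightest such probe set. Of the 30 genes, 19 passed, among 10350 tested genes in all, and 16 had a probe set that was Present on all 4 arrays. Another 2 probe sets, which name *Cyp4a31* with *Cyp4a10* and *Cyp4f37* with *Cyp4f16*, belong to more than 1 gene and were left out.

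The RNA was total RNA of non-tumorous liver from 2 G9aKO mice and 2 WT mice, 1 array each. G9aKO mice carried Alb-Cre and G9aflox/flox, and WT mice carried Alb-Cre and G9a+/+, so that both genotypes had the transgene. Cre under the albumin promoter deletes G9a, a methyltransferase of histone H3, in hepatocytes. The paper found residual G9a protein in whole liver of such mice, probably from cells other than hepatocytes. All 4 mice were male progeny of stock backcrossed to C57BL/6, fed regular chow and 30 weeks old, and all had received 25 mg/kg diethylnitrosamine (DEN) at 15 days and then 22 injections of CCl4 at 0.5 ml/kg. CCl4, the carbon tetrachloride that itself is activated by P450 enzymes, injures the liver, so the levels below are those of repeatedly injured liver and no uninjured liver was measured. The comparison asks whether liver with G9a deleted in hepatocytes expressed the lipid P450 genes at other levels than WT liver.

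P450 enzymes are haem proteins that put an oxygen atom into a substrate, with electrons from a reductase or, in mitochondria, from ferredoxin. In the liver, *Cyp7a1* starts the classic pathway of bile acid synthesis from cholesterol, *Cyp27a1* and *Cyp7b1* serve the alternative pathway, and *Cyp8b1* sets the share of cholic acid. *Cyp51* works in cholesterol synthesis, the Cyp4 family hydroxylates fatty acids and eicosanoids at their far end, and the Cyp26 enzymes break down retinoic acid.

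*Ehmt2*, which encodes G9a, had MAS5 signals of 174 and 164 in G9aKO liver, both called Absent, against 640 and 492 in WT liver, both called Present. MAS5 signals are background-corrected intensities on a linear scale. The geometric mean signal in WT liver was 3.33-fold that in G9aKO liver. The log2 fold change of G9aKO over WT was -1.73 (SE 0.23, 95% interval -2.30 to -1.17, adjusted p = 0.063 from limma). Since both G9aKO signals were Absent, the level there is uncertain. Where the probes lie relative to the floxed exons is not known here. Present calls were made for 43.9% and 42.8% of probe sets on the G9aKO arrays and 41.9% and 41.3% on the WT arrays, and 95% of Absent signals lay below 170 to 181, a level under which differences are uncertain. Arrays of the same genotype correlated at 0.971 for G9aKO and 0.97 for WT, and arrays of different genotypes at 0.959 to 0.967. The 14 tested hepatocyte markers of 15 listed, albumin among them, had summed signals of 731009 and 654909 in G9aKO liver and 736810 and 706543 in WT liver, so the labelled tissue showed its markers on all arrays. The labels give no batch, date or pairing, and the number of arrays, 2 per genotype, limits the precision.

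Among the lipid P450 genes, higher and lower signals in G9aKO liver were about equally frequent. *Cyp17a1* was the 1 gene of the 19 that rose at an adjusted p under 0.05, where 0.319% of all tested genes were higher, and 0 members fell, where 0.0676% of all tested genes were lower. Without adjustment, limma gave 4 members with a higher signal at p under 0.05 (*Cyp17a1*, *Cyp4a31*, *Cyp39a1* and *Cyp20a1*; 21.1% of the 19, against 5.92% of all genes) and 5 were lower (*Cyp8b1*, *Cyp7a1*, *Cyp27a1*, *Cyp4v3* and *Cyp4f13*; 26.3%, against 4.1% of all genes). With each array centred on its median, 479 of all genes passed the unadjusted threshold as higher and 642 as lower, in place of 613 and 424, while the members counted 4 and 6, *Cyp7b1* being the added one.

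Both G9aKO signals lay above both WT signals for 5 of the 19 genes, the 4 higher ones and *Cyp4a14*, and below both for the 5 lower ones, which is 26.3% each way. Over all genes the shares were 22.3% above and 19.3% below, so these shares of the lipid P450 genes were near the background. The median log2 fold change of the 19 was 0.05, with 10 above 0 and 9 below, against 0.02 for all genes. The median size of the log2 fold change, without its sign, was 0.61 for the 19, 0.30 for the 34 tested genes of the Cyp1, Cyp2 and Cyp3 families, which mostly act on foreign compounds, and 0.19 for all genes. The lipid P450 genes also varied more within a genotype: the median log2 difference between the 2 mice was 0.27 in G9aKO and 0.39 in WT liver, against 0.22 and 0.21 over all genes. The difference between genotypes exceeded the gene's own difference between mice in both genotypes in 9 of the 19 (47.4%) and in 29.1% of all genes.

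**Figure D1:**
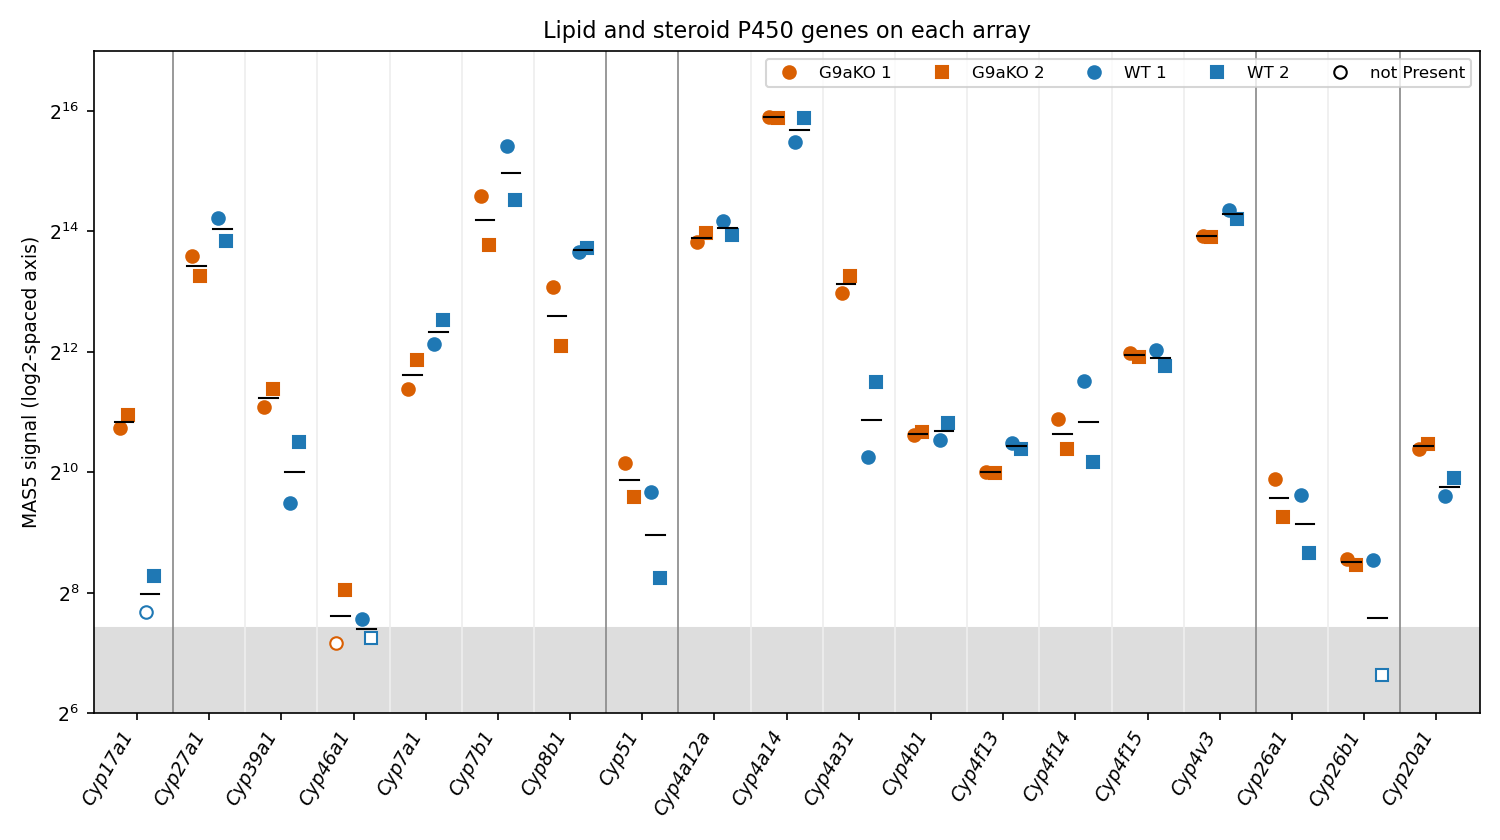
MAS5 signal (log2-spaced axis) of the 19 tested lipid and steroid P450 genes on each array, G9aKO in orange and WT in blue, grouped by role; black bars are geometric means of the 2 mice, open symbols are arrays on which the probe set was not called Present, and the grey band lies below the lowest of the arrays' 95% quantiles of Absent signals. The *Cyp17a1* signals of 1702 and 1970 in G9aKO liver stand above those of 206 and 312 in WT liver, and *Cyp8b1* and *Cyp27a1* stand lower in G9aKO liver on both arrays.

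*Cyp17a1*, the steroid hydroxylase and lyase that leads to androgens in the gonads and that mouse liver also expresses, had the largest difference of the 19 genes. Its signal was 1702 and 1970 in G9aKO liver, against 206 and 312 in WT liver. Both G9aKO signals lay far above both WT signals, and the first WT array was the only one of the 4 on which the probe set was Absent. The means were 1836 ± 189 in G9aKO and 259 ± 75.1 in WT liver (SD, n = 2 each), a 7.23-fold difference (log2 fold change 2.85, SE 0.24, 95% interval 2.27 to 3.44, adjusted p = 0.0262 from limma). The difference was 2.55 to 3.16 with 1 array left out, and without the first WT array the adjusted p was 0.0816. The gene lies at chr19:46667165-46673000 (GRCm38.p6).

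The other steroidogenic P450 enzymes were not detected. *Cyp11a1*, which cuts the side chain of cholesterol, *Cyp11b1*, *Cyp11b2* and *Cyp21a1*, enzymes of the adrenal cortex, were Present on no array. Among the steroid hormone enzymes that are not P450s, 12 of 20 listed genes were tested, with 0 past the adjusted threshold of limma, 1 higher and 2 lower without adjustment, and a median of 0.06. The 2 with the smallest p were *Hsd17b6*, a hydroxysteroid dehydrogenase, and *Hsd3b3*, an enzyme of the 3-beta dehydrogenase family. *Hsd17b6* had signals of 2002 and 2539 in G9aKO liver, against 4812 and 4684 in WT liver (log2 fold change -1.07, adjusted p = 0.0735), and *Hsd3b3* a log2 fold change of -0.79 (adjusted p = 0.237). Both lay on the side opposite to *Cyp17a1*.

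Bile acid and oxysterol hydroxylases had the lowest median of the functional groups, -0.66 on the log2 scale, with 4 of the 6 tested genes below 0. Apart from the 8 fatty acid and eicosanoid hydroxylases, the other groups held only 1 or 2 tested genes. At the adjusted threshold of limma 0 of the 6 passed, and without adjustment *Cyp8b1*, *Cyp7a1* and *Cyp27a1* passed p under 0.05 as lower and *Cyp39a1* as higher. Leaving out the first WT array moved this median to -0.38, and leaving out the second G9aKO array to -0.42. *Cyp8b1*, the sterol hydroxylase that directs synthesis to cholic acid, had signals of 8663 and 4379 in G9aKO liver and 12995 and 13482 in WT liver. The WT mice were within 1.04-fold of each other, whereas the G9aKO mice differed 1.98-fold, and both lay below WT. Its log2 fold change was -1.10 (SE 0.30, 95% interval -1.84 to -0.37, adjusted p = 0.317). Without the first G9aKO array it was -1.60, and without the second it was -0.61, so that its size turned on 1 mouse. With 1 G9aKO array left, the gene's own spread came from the WT mice alone.

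*Cyp7a1*, the rate-limiting enzyme of the classic pathway, had signals of 2660 and 3740 in G9aKO liver and 4471 and 5942 in WT liver. The groups did not overlap (log2 fold change -0.71, SE 0.22, adjusted p = 0.364). A second probe set of the gene, with signals of 593 and 729 in G9aKO liver and 1075 and 1620 in WT liver, was likewise lower, at -1.0 (adjusted p = 0.258 over all probe sets). *Cyp27a1*, the mitochondrial hydroxylase of the sterol side chain, had 12278 and 9844 in G9aKO liver and 19182 and 14636 in WT liver. Here too both G9aKO signals were below both WT signals (log2 fold change -0.61, SE 0.17, adjusted p = 0.332).

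*Cyp7b1*, the oxysterol hydroxylase that follows *Cyp27a1*, showed the same side with less order. Its signals were 24630 and 14073 in G9aKO liver and 43737 and 23584 in WT liver. The first G9aKO signal exceeded the second WT signal, so the genotypes overlapped, and the mice of 1 genotype differed 1.75-fold in G9aKO and 1.85-fold in WT (log2 fold change -0.79, 95% interval -1.66 to 0.09, adjusted p = 0.54). A second probe set gave the same log2 fold change of -0.79.

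*Cyp39a1*, which hydroxylates 24-hydroxycholesterol, stood on the other side. Signals were 2166 and 2680 in G9aKO liver and 719 and 1459 in WT liver, without overlap, and the WT mice differed 2.03-fold (log2 fold change 1.23, SE 0.33, adjusted p = 0.313). Without the first WT array the log2 fold change was 0.72, and without the second it was 1.74. *Cyp46a1*, the brain enzyme that makes 24-hydroxycholesterol, was near the background, at 144 and 265 in G9aKO liver and 189 and 152 in WT liver, with 1 array of each genotype called Absent (log2 fold change 0.20, adjusted p = 0.892).

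**Figure D2:**
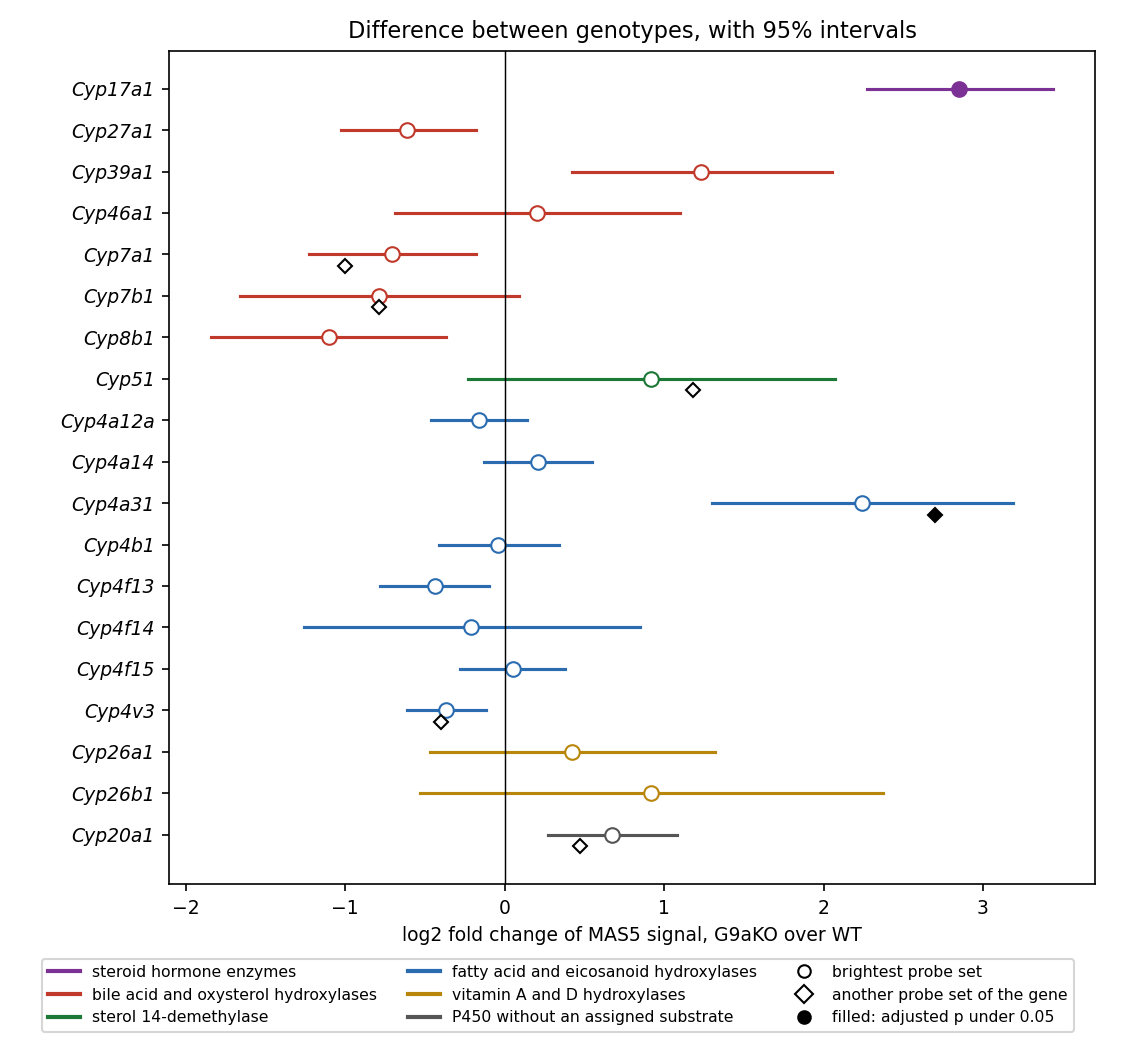
Log2 fold change of MAS5 signal, G9aKO over WT, for the 19 tested genes (circles) with 95% intervals from limma, coloured by role; diamonds are further tested probe sets of a gene and filled symbols have an adjusted p under 0.05. *Cyp17a1* at 2.85 is filled, as is the second *Cyp4a31* probe set at 2.70, and *Cyp8b1*, *Cyp7b1*, *Cyp7a1* and *Cyp27a1* lie between -1.10 and -0.61.

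The promoters of *Cyp8b1* and *Cyp27a1*, both lower in G9aKO liver, and of *Cyp51*, the enzyme of sterol synthesis described next, are shown because these genes meet in the traffic of cholesterol. RefSeq promoter entries (GRCm38.p6) matched 17 of the 30 genes and 12 of the 19 tested ones. Each is the 250 bases before a transcription start of the gene, 5′ to 3′ on the gene's strand, with matches to the searched motifs in capitals. *Cyp8b1* lies on the minus strand, at chr9:121916306-121916555, *Cyp27a1* on the plus strand, at chr1:74713285-74713534, and *Cyp51* on the minus strand, at chr5:4104698-4104947. The *Cyp27a1* window belongs to a start that lies 387 bases inside the annotated gene (chr1:74713148-74737897), so that this window lies within the gene, whereas the other two end at the gene's edge.
Cyp8b1: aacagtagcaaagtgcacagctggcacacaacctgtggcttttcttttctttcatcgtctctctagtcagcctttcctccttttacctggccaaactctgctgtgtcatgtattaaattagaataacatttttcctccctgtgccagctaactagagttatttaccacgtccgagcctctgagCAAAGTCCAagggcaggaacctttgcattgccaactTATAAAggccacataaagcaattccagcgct
Cyp27a1: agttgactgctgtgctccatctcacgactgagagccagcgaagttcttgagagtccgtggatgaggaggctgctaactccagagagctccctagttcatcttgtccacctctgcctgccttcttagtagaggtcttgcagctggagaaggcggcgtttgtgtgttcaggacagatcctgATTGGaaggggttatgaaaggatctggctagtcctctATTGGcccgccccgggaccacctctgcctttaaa
Cyp51: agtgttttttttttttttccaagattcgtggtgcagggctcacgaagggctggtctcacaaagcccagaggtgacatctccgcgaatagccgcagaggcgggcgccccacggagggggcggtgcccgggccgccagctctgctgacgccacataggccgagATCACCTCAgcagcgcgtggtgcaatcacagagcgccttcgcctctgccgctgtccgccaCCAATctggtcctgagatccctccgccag

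Both strands of every promoter window were searched for the CCAAT box, for the TATA box as TATAAA, for the nuclear receptor motif as AGGTCA, for the HNF4 site as CAAAGTCCA and for sterol regulatory elements as TCACNCCAC or ATCACCTCA. No match overlaps another in these 3 promoters. In *Cyp8b1* the capitals mark CAAAGTCCA, a form of the site of the liver factor HNF4, at 67 to 59 bases before the start, and TATAAA at 31 to 26 bases. In *Cyp27a1* they mark ATTGG, the other strand of CCAAT, at 71 to 67 and at 34 to 30 bases. In *Cyp51* they mark ATCACCTCA, a form of the sterol regulatory element, at 89 to 81 bases and CCAAT at 29 to 25 bases. Among 32851 promoter windows of the same length, the HNF4 site occurred in 0.384%, ATCACCTCA in 0.18%, TCACNCCAC in 1.05%, the TATA box in 12.4%, the nuclear receptor motif in 14% and the CCAAT box in 33.8%. GC content was 44.8% in *Cyp8b1*, 54.0% in *Cyp27a1* and 62.8% in *Cyp51*, with 4, 7 and 20 CpG, against medians of 52.4% and 6 over all windows. The HNF4 site and ATCACCTCA were added to the search after these sequences had been seen, so their matches here were fixed beforehand. These matches describe letters, and no binding was measured.

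The bile acid genes that are not P450s had medians nearer 0. Of 13 tested genes of bile acid synthesis, 0 passed the adjusted threshold of limma, 1 was higher and 1 lower without adjustment, and the median was -0.10. *Baat*, which joins bile acids to taurine or glycine, had signals of 4834 and 5101 in G9aKO liver and 7763 and 7072 in WT liver (log2 fold change -0.58, adjusted p = 0.163). *Akr1d1*, the reductase of the sterol ring, had a log2 fold change of 0.41 (adjusted p = 0.434).

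Of 14 tested genes of bile acid transport and feedback, 0 passed the adjusted threshold, 2 were higher and 2 lower without adjustment, and the median was -0.06. *Nr0b2*, which encodes SHP, a repressor of *Cyp7a1* and *Cyp8b1*, had 1345 and 1652 in G9aKO liver and 2513 and 2982 in WT liver, without overlap (log2 fold change -0.88, adjusted p = 0.157). The signals of this repressor and of both its targets were thus lower in G9aKO liver. *Slco1a4*, an uptake carrier, had 2814 and 2150 in G9aKO liver and 1155 and 1210 in WT liver (log2 fold change 1.06, adjusted p = 0.106).

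*Cyp51*, which removes a methyl group from lanosterol on the way to cholesterol, had signals of 1141 and 772 in G9aKO liver and 816 and 302 in WT liver. The genotypes overlapped and the WT mice differed 2.7-fold (log2 fold change 0.92, SE 0.47, 95% interval -0.23 to 2.07, adjusted p = 0.574). It was 0.20 when the second WT array was left out. A dimmer probe set of the gene, at 537 and 389 in G9aKO liver and 279 and 145 in WT liver, did not overlap, at 1.18 (unadjusted p = 0.0138, adjusted p = 0.39 over all probe sets).

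The steps of sterol synthesis on either side of *Cyp51* mostly had higher signals in G9aKO liver. Of 16 tested genes, 15 had a log2 fold change above 0, as did 53.4% of all tested genes, the median was 0.48, and without adjustment 7 passed p under 0.05 as higher and 1 as lower. *Sqle*, the squalene epoxidase that makes the precursor of lanosterol, was the 1 that rose at the adjusted threshold. Its signals were 810 and 760 in G9aKO liver and 205 and 171 in WT liver, the mice of each genotype close to one another (log2 fold change 2.07, SE 0.20, adjusted p = 0.0311). With 1 array left out its log2 fold change was 1.94 to 2.20, and the adjusted p stayed under 0.05 only when the second G9aKO array was left out (0.0349, up to 0.121 otherwise). *Dhcr7*, which makes cholesterol from its direct precursor and thereby also draws on provitamin D, had 886 and 838 in G9aKO liver and 248 and 343 in WT liver, the first WT signal being Absent (log2 fold change 1.56, adjusted p = 0.0722).

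Of the 8 tested fatty acid and eicosanoid hydroxylases, all of the Cyp4 family, 3 were above 0 and 5 below, with a median of -0.10. At the brightest probe set 0 passed the adjusted threshold, and *Cyp4a31* as higher and *Cyp4v3* and *Cyp4f13* as lower passed without adjustment. *Cyp4a31*, an omega-hydroxylase of the Cyp4a cluster on chromosome 4, had signals of 8099 and 9790 in G9aKO liver and 1219 and 2896 in WT liver. Both G9aKO signals were well above the higher WT signal, and the WT mice differed 2.38-fold (log2 fold change 2.24, SE 0.38, 95% interval 1.30 to 3.19, adjusted p = 0.12). A second *Cyp4a31* probe set had 1210 and 1157 in G9aKO liver and 175 and 190 in WT liver, with close mice in both genotypes. Its WT signals were called Present but lay near the 95% level of Absent signals. At that probe set the gene rose by 2.70 on the log2 scale (adjusted p = 0.0161 over 17158 probe sets, of which 0.233% were higher). The probe set described first passed as well when the second WT array was left out, at 2.87 with an adjusted p of 0.0414.

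The Cyp4a genes are near copies of one another, so that a probe set may read more than the gene it names, and *Cyp4a10* had no probe set of its own here. Its neighbours in the cluster had smaller differences. *Cyp4a14*, at chr4:115486200-115496158 against chr4:115563627-115579015 for *Cyp4a31*, had 61206 and 60640 in G9aKO liver and 46118 and 60229 in WT liver. Its second WT signal nearly equalled the G9aKO signals (log2 fold change 0.21, 95% interval -0.13 to 0.55, adjusted p = 0.67). These signals were about as high as those of *Alb*, at 65622 and 57072 in G9aKO liver and 69483 and 63618 in WT liver. Whether signals this high can still show a rise was not tested. *Cyp4a12a*, a form known to be higher in male mice, had 14461 and 16052 in G9aKO liver and 18540 and 15641 in WT liver, overlapping (log2 fold change -0.16, 95% interval -0.46 to 0.14, adjusted p = 0.711).

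Smaller differences to the other side came from *Cyp4v3* and *Cyp4f13*. *Cyp4v3*, the mouse counterpart of the fatty acid hydroxylase CYP4V2, had 15527 and 15395 in G9aKO liver and 20975 and 18990 in WT liver, and did not overlap (log2 fold change -0.37, SE 0.10, adjusted p = 0.318). Its second probe set, with 5941 and 6223 in G9aKO liver and 8495 and 7559 in WT liver, had a log2 fold change of -0.40. *Cyp4f13*, of the subfamily that hydroxylates leukotrienes and other eicosanoids, had 1033 and 1018 in G9aKO liver and 1441 and 1342 in WT liver, without overlap (log2 fold change -0.44, SE 0.14, adjusted p = 0.397).

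The remaining Cyp4 genes showed no separation. *Cyp4f14*, a leukotriene B4 hydroxylase of mouse liver, had 1886 and 1337 in G9aKO liver inside the range of 2919 and 1149 in WT liver (log2 fold change -0.21, 95% interval -1.26 to 0.85). *Cyp4f15* had 4032 and 3863 in G9aKO liver and 4162 and 3497 in WT liver, at a log2 fold change of 0.05 (adjusted p = 0.932). *Cyp4b1* had 1572 and 1626 in G9aKO liver and 1484 and 1810 in WT liver, at -0.04 (adjusted p = 0.955). For these last 2 genes the interval of the difference ran from -0.28 to 0.38 and from -0.41 to 0.34, so that a difference of 1 on the log2 scale lies outside it.

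PPAR-alpha, the nuclear receptor that drives Cyp4a genes in liver, and its targets were examined beside them. Of 21 tested genes 0 passed the adjusted threshold, 3 were higher and 1 lower without adjustment, 18 had a log2 fold change above 0 and the median was 0.16, against 53.4% above 0 and a median of 0.02 for all genes. *Acot2*, a mitochondrial acyl-CoA thioesterase, had 2720 and 3309 in G9aKO liver and 1179 and 1636 in WT liver (log2 fold change 1.11, adjusted p = 0.14). *Acot1*, its cytosolic relative, had a log2 fold change of 0.59 (adjusted p = 0.23), and *Ppara* itself one of -0.04 (adjusted p = 0.954). Among 8 tested enzymes of fatty acid epoxides and eicosanoids, 0 passed the adjusted threshold, 1 was higher and 0 were lower without adjustment and the median was 0.33, with *Ces1g*, a carboxylesterase, at 1.18 (adjusted p = 0.157) and *Alox5ap*, the partner of 5-lipoxygenase, at 0.75 (adjusted p = 0.501).

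The retinoic acid hydroxylases varied between WT mice more than between genotypes. *Cyp26a1* had 944 and 611 in G9aKO liver and 786 and 407 in WT liver, overlapping (log2 fold change 0.42, adjusted p = 0.741). *Cyp26b1* had 376 and 352 in G9aKO liver and 374 and 99.0 in WT liver, the last of these called Absent, and the WT mice differed 3.77-fold. Its log2 fold change of 0.92 (adjusted p = 0.66) became -0.04 without that array. *Cyp24a1*, which breaks down vitamin D, and *Cyp27b1*, which activates it in the kidney, were Present on no array. Of 11 tested genes that handle vitamins A and D otherwise, 0 passed the adjusted threshold, 2 were higher and 0 lower without adjustment, and the median was -0.01. Besides *Dhcr7*, which is also in the sterol list, *Rdh11*, a retinol dehydrogenase, had the smallest p there, at a log2 fold change of 0.98 (adjusted p = 0.243).

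*Cyp20a1*, a P450 without an established substrate, had 1341 and 1424 in G9aKO liver and 784 and 958 in WT liver. The genotypes did not overlap and the mice of each were close (log2 fold change 0.67, SE 0.16, 95% interval 0.27 to 1.08, adjusted p = 0.263). Its second tested probe set, near the background at 82.9 and 69.6 in G9aKO liver and 46.2 and 64.7 in WT liver, had a log2 fold change of 0.47. For all 6 genes with more than 1 tested probe set the tested probe sets had 1 sign.

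**Figure D3:**
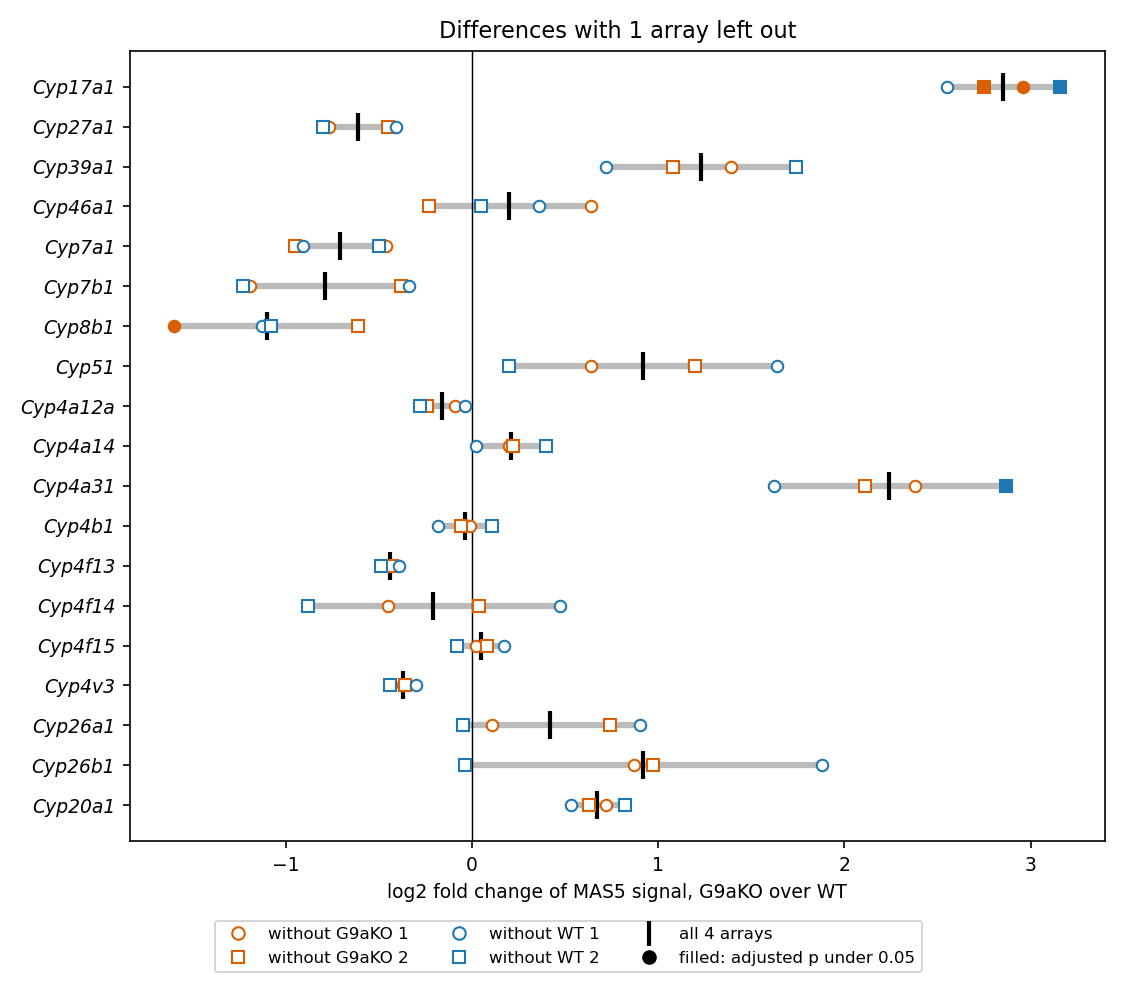
Log2 fold change of MAS5 signal, G9aKO over WT, of the 19 tested genes with all 4 arrays (black bar) and with each array left out in turn (orange for a G9aKO array, blue for a WT array, filled where the adjusted p was under 0.05). *Cyp17a1* stays between 2.55 and 3.16 and *Cyp20a1* between 0.53 and 0.82, whereas *Cyp26b1* reaches -0.04 and *Cyp8b1* spans -1.60 to -0.61.

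The 11 genes that were not tested had 17 probe sets with signals of 1.21 to 260 and a median of 23.6, mostly below the level of Absent probe sets given above. They were *Cyp11a1*, *Cyp11b1*, *Cyp11b2*, *Cyp21a1*, *Cyp24a1*, *Cyp27b1*, *Cyp4f16*, *Cyp4f18*, *Cyp4f39*, *Cyp4f41-ps* and *Cyp4x1*. Of the 46 probe sets, 19 were Present on no array and 2 on 1 array. A low signal does not show that a gene was silent in liver.

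Floxed alleles can carry flanking sequence of the strain in which they were made, and *Ehmt2* lies on chromosome 17 (chr17:34898463-34914073) together with 8 of the 30 genes. *Cyp21a1*, 0.094 Mb away, was not tested. The 3 tested Cyp4f genes of the cluster, *Cyp4f13*, *Cyp4f14* and *Cyp4f15*, lie 1.95, 1.98 and 2.2 Mb away, with log2 fold changes of -0.44, -0.21 and 0.05, and *Cyp39a1* lies 8.75 Mb away, with 1.23. Over the 474 tested genes of the chromosome the median was 0.02, and 4 (0.844%) were past the adjusted threshold in either direction, against 40 (0.386%) of all tested genes. Which strain's sequence surrounds the floxed allele was not tested.

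Partners and regulators of P450 enzymes, some of which serve only part of them, were tested as well. Of 10 listed electron donors and haem partners 8 were tested. *Por* and *Fdxr*, which encode reductases, had no probe set under these names alone, so their detection was not assessed. Among the 8, 0 passed the adjusted threshold, 1 was higher without adjustment, and the median was -0.11. *Fdx1*, the ferredoxin of mitochondrial P450s such as *Cyp27a1*, had a log2 fold change of -0.24 (adjusted p = 0.621) and *Hmox1*, which breaks down haem, one of 0.93 (adjusted p = 0.361). Of 23 nuclear receptors and other regulators, 0 passed the adjusted threshold and 2 were higher without adjustment, with a median of 0.04. *Nr1i3*, which encodes the receptor CAR, had 0.38 (adjusted p = 0.379), and *Foxa3*, a hepatocyte factor, 0.41 (adjusted p = 0.463).

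**Figure D4:**
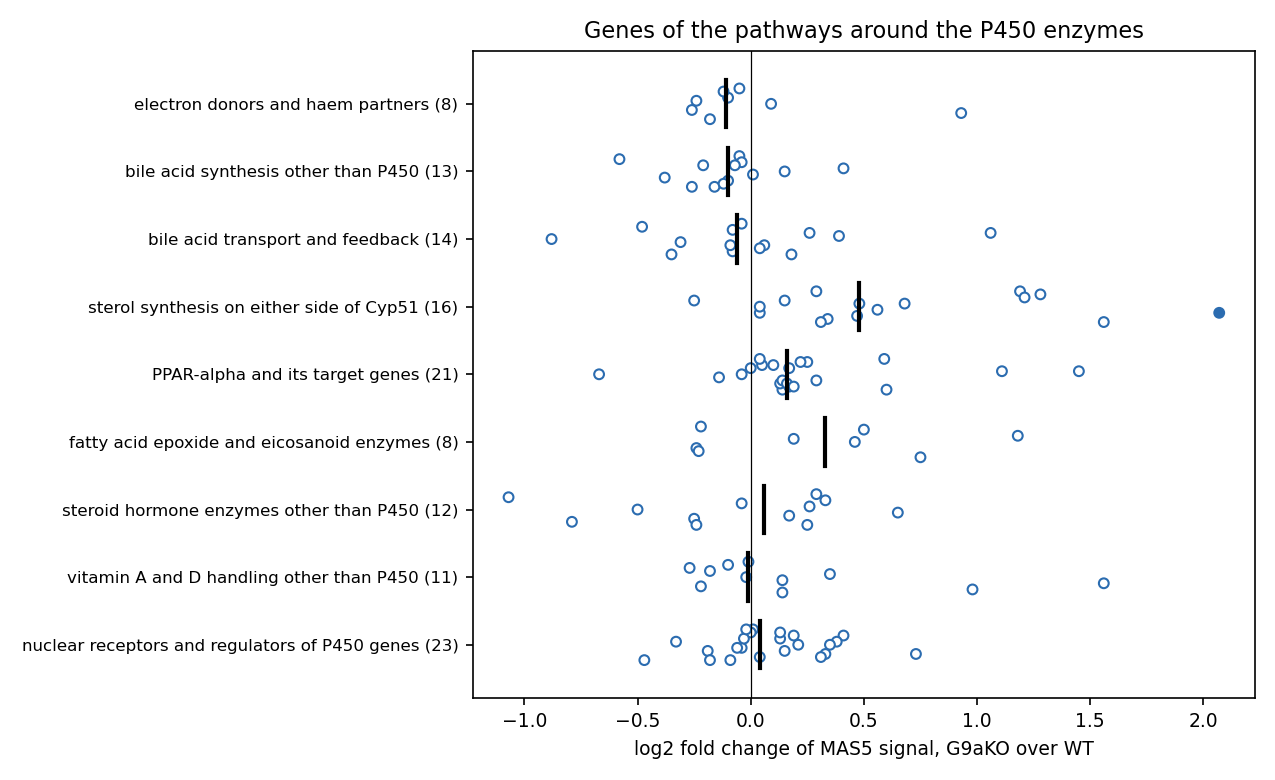
Log2 fold change of MAS5 signal, G9aKO over WT, of the tested genes in 9 lists around the P450 enzymes, with the number tested in parentheses and the list median as a black bar; a filled point has an adjusted p under 0.05. *Sqle* at 2.07 is the filled point, and the sterol list has the highest median, 0.48.

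The summed signals of markers of other cells differed between arrays, and in whole liver fewer cells of a type and less RNA per cell cannot be told apart. All 14 tested macrophage and Kupffer cell markers of 15 listed had a log2 fold change above 0 (median 0.44; 53.4% of all genes were above 0), with summed signals of 76362 and 49140 in G9aKO liver and 35801 and 52046 in WT liver. All 9 tested stellate cell and fibroblast markers of 12 were above 0 (median 0.55), with sums of 22066 and 13923 in G9aKO liver and 11844 and 16585 in WT liver. For both lists the first G9aKO array had the high sum, and the second lay within the WT range. Of 10 cholangiocyte markers 3 were tested (*Sox9*, *Pkhd1* and *Prom1*; median 0.90, sums of 932 and 654 in G9aKO liver and 386 and 292 in WT liver), whereas *Krt7*, *Krt19* and *Epcam* were not Present on 2 arrays. Sinusoidal endothelium had a median of 0.05 over 9 tested markers of 10, with 5 above 0 and sums of 15157 and 14357 in G9aKO liver and 16677 and 13379 in WT liver. The few tested neutrophil markers (3 of 10, median 0.04) and B and plasma cell markers (5 of 8, median 0.06) had sums that were high on the first G9aKO array alone, at 2410 and 390 for neutrophils in G9aKO liver, against 1124 and 758 in WT liver, and at 2128 and 763 for B and plasma cells in G9aKO liver, against 894 and 886 in WT liver. The 2 tested T and NK cell markers of 10 had a median of -0.33, with sums of 224 and 192 in G9aKO liver and 346 and 198 in WT liver. The part of other cell types in these differences was not tested.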

How the data were processed

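The arrays were GeneChip Mouse Genome 430 2.0 arrays of 2 G9aKO and 2 WT mice, grouped by the genotype in the labels. The authors deposited MAS5 intensity values on a linear scale, with a detection p-value and call per probe set; per the labels the software was MAS5, of a version that the sources used here do not name. The 2% trimmed mean of every array was 500, so no further scaling was applied. A matrix of the same series differed from the per-sample values by at most 5e-06 of the signal.

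Log2 signals, with no pseudocount, were compared with limma 3.58.1 in R 4.3.3 (lmFit, eBayes with a mean-variance trend; 2 residual and 4.02 prior degrees of freedom). P-values were adjusted by Benjamini-Hochberg over 10350 genes (17158 probe sets when taken singly), with a threshold of 0.05. An exact two-sided permutation test of 2 against 2 mice cannot give a p below 0.33. The limma p-values rest on each gene's spread between these mice only in part. The rest comes from the trend of that spread over all genes. The script was tested on simulated data. For *Ehmt2*, Absent in both G9aKO mice, the fold difference used the probe set's own signals.

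Genes and gene lists were chosen with earlier results of these data known, and lists are described by counts and medians only. The naming rule covered members past the adjusted or unadjusted threshold, the 3 brightest per role, and a fixed set of liver enzymes; it gave 17 of the 19 tested members, and *Cyp4f15* and *Cyp4b1* were added for completeness after their values were seen. From each list, genes past the threshold or the 2 with the smallest p were named; *Dhcr7*, *Ppara* and the cell markers were named besides, with their values known. The HNF4 and *Cyp51*-type motifs were added after the promoter sequences had been seen. Alternatives were other scalings, a pseudocount, detection filters, the choice of probe set, no trend, the methods' t-test and leaving out each array. Annotation gave gene names by Entrez identifier for all 30 members.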

Additional observations from a re-analysis of the deposited data

Results flagged for a closer look

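*Cyp4f16*, a Cyp4f gene outside the test, had a signal of 260 on the second G9aKO array, where it was called Present, and 185 on the first, where it was Absent, against 173 and 94.5 on the WT arrays, both Absent. A detection call was thus made in G9aKO liver and in no WT liver. *Cyp4f39*, also outside the test, had the same pattern of calls. Its signals were 83.4, called Present, and 103 in G9aKO liver, overlapping 69 and 100 in WT liver. The other *Cyp4f16* probe set was Absent on all 4 arrays.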

How the results depend on the processing

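The count of lipid P450 genes called higher, 1 in the report, was 0 without the mean-variance trend, 0 when Present calls on all 4 arrays were required, which drops *Cyp17a1*, and 0 by the methods' t-test with Benjamini-Hochberg adjustment. It was 2, *Cyp17a1* and *Cyp4a31*, with the mean of a gene's probe sets and with each probe set on its own, and 2, *Cyp17a1* and *Cyp20a1*, by the methods' t-test without adjustment. With 1 array left out it ranged from 0 to 2. The count called lower, 0 in the report, was 2 (*Cyp4v3* and *Cyp4f13*) by the methods' t-test without adjustment and ranged from 0 to 1 with 1 array left out; the 1 was *Cyp8b1*. The adjusted p of *Cyp17a1* was 0.154 without the trend and 0.53 by the methods' t-test after adjustment, settings under which 0 of all genes passed (without adjustment, 645 passed p under 0.05 as higher and 318 as lower with no trend, and 449 and 406 by the t-test). *Sqle* did not pass under either of these (0.134 and 0.491), nor with no detection filter (0.054).

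Over 288 refits of the 19 genes, 273 kept the sign and the side of the threshold, 4 gained and 3 lost the call, and 8 changed sign. With 1 array left out, log2 fold changes ranged from -0.04 to 1.88 for *Cyp26b1*, -0.05 to 0.90 for *Cyp26a1*, -0.08 to 0.17 for *Cyp4f15* and -0.18 to 0.11 for *Cyp4b1*, the sign turning without the second WT array. The range was -0.23 to 0.64 for *Cyp46a1*, which turned without the second G9aKO array. It was -0.88 to 0.47 for *Cyp4f14*, which turned without the second G9aKO array (0.04) and without the first WT array. *Cyp4f15* came to -0.01 with median centring. The other 13 genes kept their sign in every refit. The cause of these shifts was not tested. Many of the refits could not turn a sign. Dropping the trend, the t-test, the matrix of the series and the detection filters left the log2 fold changes unchanged. All genes but *Cyp17a1* also began without a call, so the count of unchanged refits says little about robustness. No paired analysis was possible because the labels give no replicate numbers, batch or litter. Signals near 170 to 181, the 95% level of Absent probe sets, limit *Cyp46a1*, *Cyp26b1* and WT values of *Cyp17a1*. They also limit the WT values of *Sqle* and of the second *Cyp4a31* probe set, and those of *Pkhd1* and *Prom1* lay lower still.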
